A study of Homo sapiens with 16 samples.

Results

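The enzymes that make, salvage or break down pyrimidines were followed in HCT116, a line established from a human colorectal carcinoma. The genes were chosen by name, as *CAD*, *DHODH*, *UMPS*, *CTPS1*, *UCK1*, *UCK2*, *UPP1*, *CDA*, *TYMP* and *DPYD*, and all 10 of these genes were found among the 33937 genes of the count table. The cells carried either a scrambled (SCR) short hairpin RNA or a short hairpin RNA against *NAA40* (NAA40-KD), a histone acetyltransferase, under control of doxycycline (dox). RNA was sequenced in 16 libraries, 4 for each line at each label, where (+dox) stands for 1 μg/ml dox and (-dox) for none, both over 96 h. The labels name a single knockdown line and do not say whether it was a clone. The study's methods call the RNA samples of a group independent without saying whether separate cultures were used, so p-values measure the spread between these samples, which may be technical.

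Pyrimidine nucleotides are built de novo from glutamine, bicarbonate and aspartate. CAD catalyses the opening steps, DHODH oxidises dihydroorotate at the inner mitochondrial membrane, and UMPS attaches ribose phosphate and decarboxylates the product to UMP. Cells also recover pyrimidines: the uridine-cytidine kinases UCK1 and UCK2 phosphorylate nucleosides, the phosphorylases UPP1 and TYMP exchange bases and sugars, and CDA deaminates cytidine. Fluorouracil, a main drug against colorectal cancer, enters cells' nucleotide pools through several of these enzymes, is degraded by DPYD, and in its activated form blocks thymidylate synthase (TYMS).

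The target of the hairpin did not follow the labels. *NAA40* was at 34.4, 25.9, 29.01 and 28.2 CPM (counts scaled to library size with edgeR's TMM factors) in SCR (-dox), at 26.0, 28.3, 26.1 and 28.8 in SCR (+dox), at 31.4, 29.2, 28.6 and 31.8 in NAA40-KD (+dox), but at 12.6, 11.5, 9.25 and 13.8 in NAA40-KD (-dox). The low libraries were thus the NAA40-KD libraries labelled as without dox, a line difference that depended on the label (interaction of 1.46 ± 0.18 log2 units, adjusted p 0.000220, edgeR's quasi-likelihood test over all 16 libraries). Every direction below refers to libraries by their labels, not to the state of NAA40.

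Total counts ran from 11065606 to 13855486 per library. The library labelled NAA40-KD (-dox) replicate 4 stood apart: its root mean square log2 deviation from the others of its group was 0.836, against 0.160 to 0.345 in the other 15 libraries, and its GC-rich genes lay 1.99 log2 units above its GC-poor genes relative to those others, against -0.72 to 0.46 elsewhere. Its mitochondrial share was 5.03%, the lowest of the 16, and its summed level of 7 epithelial markers was 8229 CPM. That sum was 4106 to 4852 CPM in the other libraries of its group and 2830 to 4052 CPM in the remaining groups, so the sum moved with the NAA40-KD (-dox) label too. The single markers did not all do so. In replicate 4 *KRT8*, *KRT18* and *CLDN4* were at 206%, 184% and 222% of the mean of replicates 1 to 3. *EPCAM* was at 75.8% and *CDH1* at 82.9% of it. Mean *EPCAM* was 318 CPM in NAA40-KD (-dox), 315 CPM in SCR (-dox) and 388 CPM in NAA40-KD (+dox). Leukocyte markers summed to at most 1.10 CPM and endothelial markers to at most 2.96 CPM in any library. Of the epithelial markers 5 of 7 passed the filter on low counts, and *CEACAM5* and *VIL1* did not. Fibroblast markers summed to 56.9 to 93.8 CPM outside that library and to 195.7 CPM in it, with 1 of the 4, *COL1A1*, past the filter. The part of these features in the results was not tested, and results that rest on that library are given with and without it.

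A gene was called higher or lower at an adjusted p under 0.05 (edgeR's quasi-likelihood F test, two-sided, Benjamini-Hochberg adjustment over all genes tested). All 10 genes passed the filter on low counts, CPM above 1 in at least 4 libraries of the fit, in every comparison. Between the lines *DPYD* met it through its SCR libraries, all 4 of which were above 1 CPM at each dox label, while 3 of the 4 NAA40-KD libraries were. A line difference was thus favoured by the filter for this gene. Between the dox labels of NAA40-KD it met the filter with 6 of the 8 libraries.

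The promoters of the genes whose levels the results turn on are shown first, as the 250 bases upstream of the first start listed in RefSeq (GRCh38.p14). That start can lie inside the gene as annotated. By the gene positions given below, the windows of *CTPS1* and *UPP1* lie within the gene, and those of *DHODH* and *CDA* overlap its first bases. Capitals mark the GC box (GGGCGG), the E-box (CACGTG) and the CCAAT box (CCAAT), each searched on both strands. *CTPS1* (chr1:40979446-40979695, plus strand) and *UPP1* (chr7:48089004-48089253, plus strand) held GC boxes only, *DHODH* (chr16:72008494-72008743, plus strand) held all of these motifs, and *CDA* (chr1:20588847-20589096, plus strand) held none.
CTPS1: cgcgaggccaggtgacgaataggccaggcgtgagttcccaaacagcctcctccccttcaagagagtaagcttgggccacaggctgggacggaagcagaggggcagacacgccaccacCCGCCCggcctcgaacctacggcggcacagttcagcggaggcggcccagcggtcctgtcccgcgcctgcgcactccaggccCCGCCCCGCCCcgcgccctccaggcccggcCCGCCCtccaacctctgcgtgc
DHODH: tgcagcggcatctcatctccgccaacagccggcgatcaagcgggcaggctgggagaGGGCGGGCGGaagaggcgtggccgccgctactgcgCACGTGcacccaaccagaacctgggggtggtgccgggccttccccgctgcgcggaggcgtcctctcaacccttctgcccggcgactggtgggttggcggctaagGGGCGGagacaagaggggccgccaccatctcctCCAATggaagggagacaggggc
UPP1: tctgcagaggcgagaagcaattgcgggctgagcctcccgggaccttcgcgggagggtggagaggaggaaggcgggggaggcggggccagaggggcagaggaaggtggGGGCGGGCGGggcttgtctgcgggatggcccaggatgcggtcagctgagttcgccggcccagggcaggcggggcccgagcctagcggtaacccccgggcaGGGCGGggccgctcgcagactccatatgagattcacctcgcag
CDA: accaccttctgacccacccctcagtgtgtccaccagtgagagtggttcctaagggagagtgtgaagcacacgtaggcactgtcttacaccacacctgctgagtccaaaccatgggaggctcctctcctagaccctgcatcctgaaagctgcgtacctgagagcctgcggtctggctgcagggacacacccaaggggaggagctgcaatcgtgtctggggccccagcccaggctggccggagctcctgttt

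The E-box 159 bases before the RefSeq start of *DHODH* used here was the only CACGTG in the 10 promoters. Of the 27305 RefSeq promoters of this length, 6.5% held one. GC boxes were in 7 of the 10, against 42.3% of all promoters, and CCAAT boxes in 4 of the 10, against 33.0%. Neighbouring GC boxes overlapped in *CTPS1*, *DHODH* and *UPP1*. No promoter of the 10 held TATAAA, TTTGGCGC or TGATGNAA, which were in 11.1%, 0.6% and 3.2% of all promoters. The *CDA* window had 5 CpG dinucleotides, fewer than the 17 to 40 of the other 9 windows, while its GC content of 60.4% lay between those of *CAD* (58.8%) and *UMPS* (62.0%). These matches are letters in a window, and binding was not measured.

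Levels per kilobase of exon spanned about 2 orders of magnitude. In SCR (-dox) *CAD* was the highest, with 33.7 ± 2.12 CPM per kb (SD, n = 4), followed by *CDA* at 29.9 ± 4.92, whose SD reached the *CAD* mean. In SCR (+dox) the means stood the other way round, at 32.2 ± 3.50 for *CAD* and 33.9 ± 3.42 for *CDA*. *UPP1* (9.67 ± 3.28), *UCK2* (9.37 ± 0.553) and *TYMP* (9.36 ± 2.38) could not be ordered, nor could *CTPS1* (6.71 ± 0.966), *UCK1* (6.18 ± 0.801) and *UMPS* (6.07 ± 0.790). *DHODH* followed at 2.97 ± 0.314 and *DPYD* was the lowest at 0.369 ± 0.118, with 10 to 53 counts per library over all 16 libraries, so that its counting error is large.

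**Figure D1:**
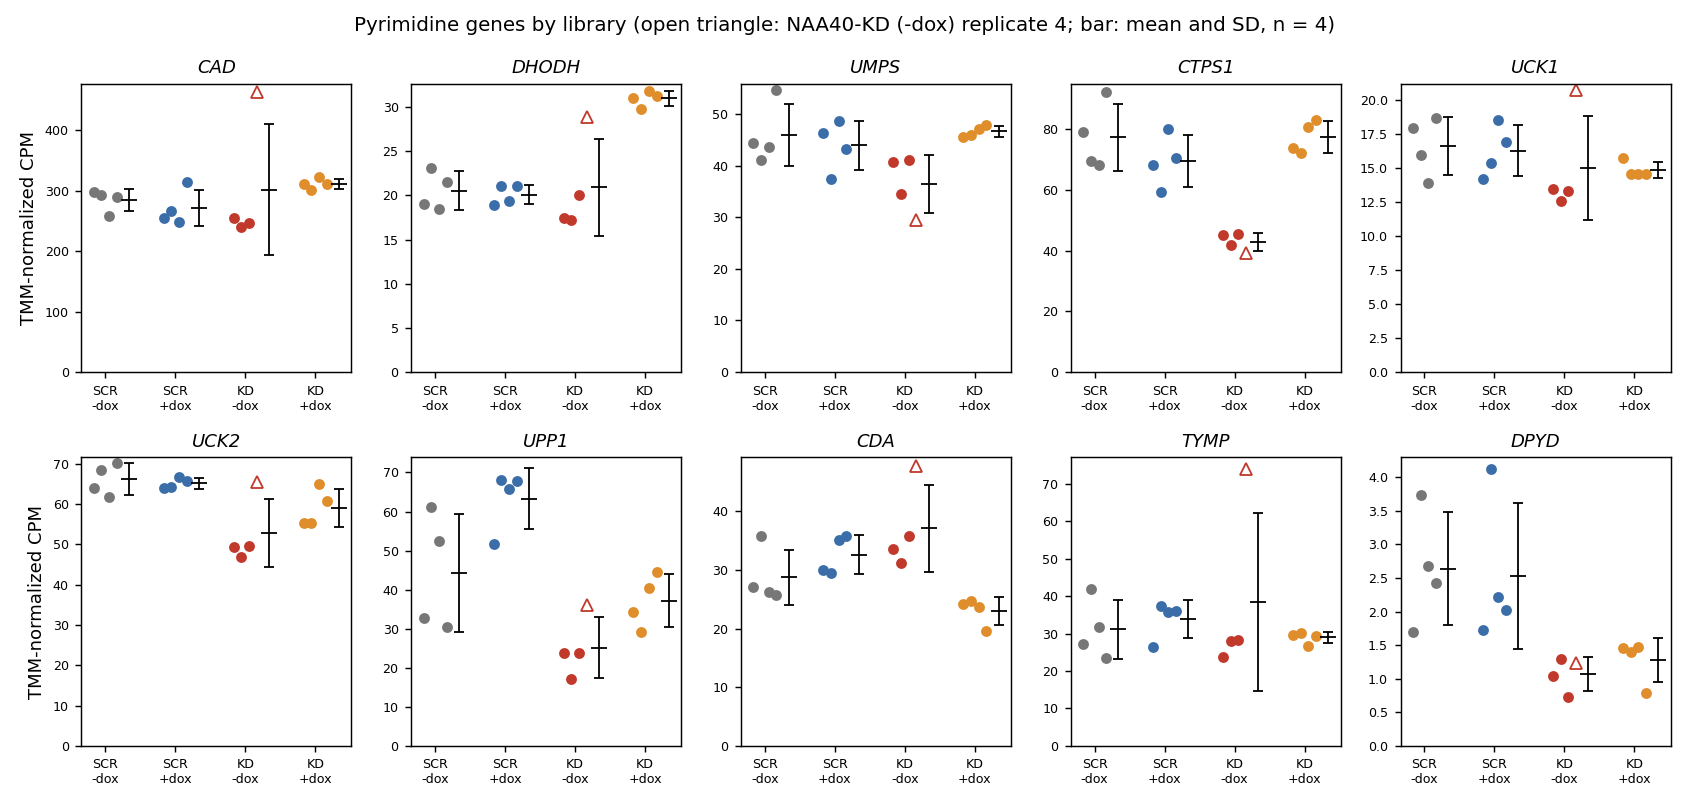
Level of each of the 10 genes (vertical axes, TMM-normalized CPM from 0, a scale per gene) in the 16 libraries by group (horizontal axis), with 1 point per library and the mean and SD of each group (n = 4) beside the points. *CTPS1* was lowest in all 4 libraries labelled NAA40-KD (-dox), *DHODH* was highest in 4 libraries labelled NAA40-KD (+dox), and the open triangle (replicate 4) lay far above its group for *CAD* and *TYMP*.

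Between the lines at the +dox label, 1 of the 10 genes was higher and 3 were lower in NAA40-KD. *DHODH* was 1.54-fold higher, while *UPP1*, *CDA* and *DPYD*, which act in salvage and breakdown, were at 58.7%, 70.5% and 50.6% of the SCR (+dox) mean. For *DPYD* the filter on low counts favoured such a difference. Over all 13869 genes tested, 10.9% were called higher and 13.7% lower. No gene of the 10 passed an absolute log2 fold change of 1, which 2.15% of all genes did with the same adjusted p. The median log2 fold change of the 10 genes was -0.14, beside -0.0042 over all genes tested. In bulk RNA, fewer cells with a transcript and less of it per cell cannot be told apart.

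Between the lines at the -dox label, where *NAA40* differed, 2 of the 10 genes were called, both lower in NAA40-KD: *CTPS1* and *DPYD*. Of all 13903 genes tested 2.88% were called higher and 3.54% lower. With an absolute log2 fold change above 1 as well, 1 of the 10, *DPYD*, remained, beside 3.47% of all genes. For *DPYD* the filter on low counts favoured a line difference, so its call adds no support. Without replicate 4 of NAA40-KD (-dox), 5 of the 10 were lower (*CTPS1*, *UCK1*, *UCK2*, *UPP1* and *DPYD*) and none higher, beside 19.4% of all genes called lower and 17.1% higher. The median of the 10 was -0.23 with that library and -0.30 without it, beside 0.038 and -0.0059 over all genes.

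**Figure D2:**
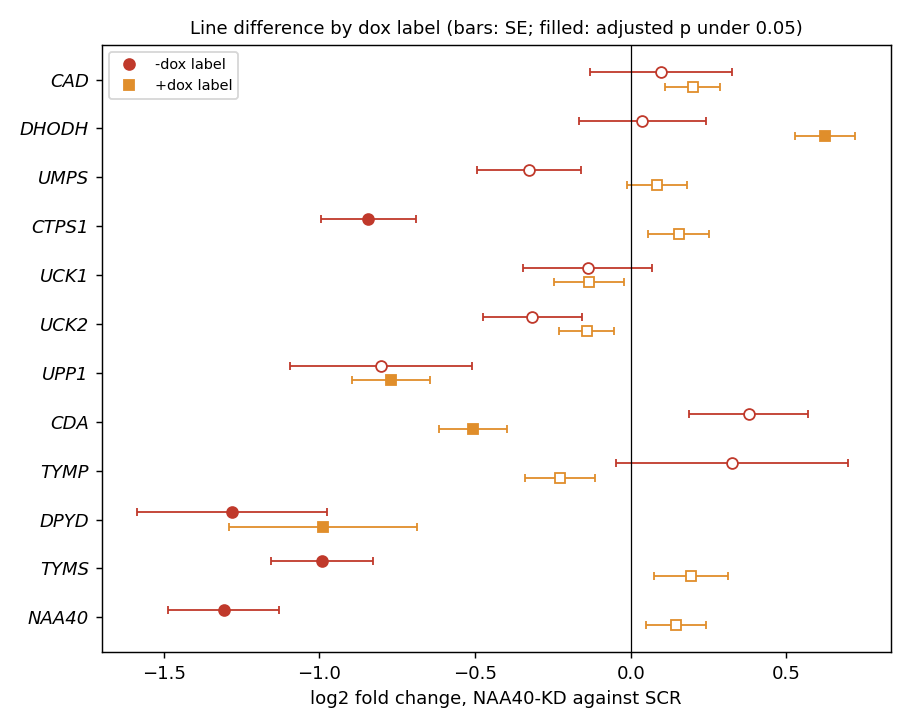
Log2 fold change of NAA40-KD against SCR (horizontal axis) with its standard error for the 10 genes, *TYMS* and *NAA40*, with circles for the -dox label and squares for the +dox label, filled where the adjusted p was under 0.05. *CTPS1*, *TYMS* and *NAA40* were called lower at the -dox label only in this plot, and *DHODH* higher at the +dox label only, and the tests of these differences between labels are given in the text.

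*CTPS1* (ENSG00000171793, chr1:40979335-41012565, plus strand) encodes the synthase that aminates UTP to CTP, the last step towards cytidine nucleotides. Its level was 79.1, 69.5, 68.3 and 92.4 CPM in SCR (-dox), and 68.2, 59.2, 80.1 and 70.7 CPM in SCR (+dox). It was 45.2, 41.8, 45.4 and 39.3 CPM in NAA40-KD (-dox), and 73.7, 72.1, 80.8 and 83.0 CPM in NAA40-KD (+dox). All 4 libraries labelled NAA40-KD (-dox) were below every other library, and the other groups overlapped one another.

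The log2 fold change of *CTPS1* between the lines was -0.84 ± 0.15 (SE) at the -dox label (adjusted p 0.0140, edgeR's quasi-likelihood test). It was 0.15 ± 0.098 at the +dox label (adjusted p 0.268). Between the dox labels of the NAA40-KD line, *CTPS1* was 1.80-fold higher with the +dox label, a log2 fold change of 0.85 ± 0.12 (adjusted p 0.00490). The line differences at the 2 labels differed by 1.00 ± 0.18 log2 units (interaction over all 16 libraries, adjusted p 0.00226).

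Leaving out replicate 4 of NAA40-KD (-dox) gave -0.81 at the -dox label (adjusted p 4.42e-05), 0.81 within the line (adjusted p 6.10e-10) and 0.96 for the interaction (adjusted p 7.06e-05). The call at the -dox label was lost without SCR (-dox) replicate 1 (adjusted p 0.0582), without SCR (-dox) replicate 4 (0.0527) and without NAA40-KD (-dox) replicate 2 (0.0515), with log2 fold changes of -0.84, -0.74 and -0.82. The interaction kept its call in each of the 16 fits that left out 1 library, with adjusted p up to 0.00788 (edgeR). *CTPS1* overlaps no other annotated gene.

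*CAD* (ENSG00000084774, chr2:27217390-27243943, plus strand), the trifunctional enzyme that commits carbon to de novo synthesis, had the highest CPM of the 10 in every group. Its level was 257.7 to 297.1 CPM in SCR (-dox), 248.8 to 313.8 CPM in SCR (+dox), and 301.4 to 322.4 CPM in NAA40-KD (+dox). In NAA40-KD (-dox) it was 255.1, 239.9, 247.2 and 463.3 CPM, the last in replicate 4. With that library the log2 difference between the lines at the -dox label was 0.098 ± 0.23 (adjusted p 0.835), and without it -0.20 (adjusted p 0.0671), so the sign depended on it. The difference between dox labels of *CAD* in the NAA40-KD line was 0.041 ± 0.22 log2 units with it (adjusted p 0.924) and 0.33 without it (adjusted p 3.06e-06, edgeR). At the +dox label the line difference was 0.20 ± 0.088 (adjusted p 0.108), which passed the threshold without SCR (+dox) replicate 4 (0.28, adjusted p 0.0115) and in a fit with an offset for the GC content of genes (0.26, adjusted p 0.00669), chosen after the data had been seen. That offset also called *CAD* within the NAA40-KD line (0.29, adjusted p 0.000959) and in the interaction (0.37, adjusted p 0.00615).

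*DHODH* (ENSG00000102967, chr16:72008588-72027664, plus strand), whose enzyme links pyrimidine synthesis to the respiratory chain, was 31.0, 29.8, 31.8 and 31.3 CPM in NAA40-KD (+dox). It was 18.9, 21.1, 19.4 and 21.0 CPM in SCR (+dox), and 19.0, 23.1, 18.5 and 21.6 CPM in SCR (-dox). It was 17.5, 17.2, 20.0 and 28.9 CPM in NAA40-KD (-dox), again highest in replicate 4. All 4 libraries labelled NAA40-KD (+dox) were above every other library.

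The line difference of *DHODH* at the +dox label was 0.62 ± 0.096 log2 units (adjusted p 0.000157, edgeR). It kept its call in each of the 8 fits without 1 library, with values between 0.60 and 0.65. At the -dox label the difference was 0.036 ± 0.20 (adjusted p 0.939), and -0.17 without replicate 4 of NAA40-KD (adjusted p 0.262). The dox labels of the NAA40-KD line differed by 0.56 ± 0.18 log2 units (adjusted p 0.0835), and 0.76 without that library (adjusted p 7.61e-08). The interaction was 0.60 ± 0.21 (adjusted p 0.0839), and 0.79 without that library (adjusted p 0.000292). With all libraries kept, DESeq2 (0.60, adjusted p 0.0465) and edgeR with the GC offset (0.72, adjusted p 0.000271) also called the interaction. The difference within the line was called as well by DESeq2 (0.57, adjusted p 0.0270), by the fit over all 16 libraries (0.57, adjusted p 0.0112) and with the GC offset (0.68, adjusted p 6.20e-05).

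*UMPS* (ENSG00000114491, chr3:124730366-124749273, plus strand) encodes the enzyme that completes UMP and that also converts fluorouracil directly into its nucleotide. It was 41.1 to 54.7 CPM in SCR (-dox), 37.5 to 48.7 CPM in SCR (+dox), 29.5 to 41.2 CPM in NAA40-KD (-dox) and 45.5 to 47.9 CPM in NAA40-KD (+dox). No line difference was called (-0.33 ± 0.17, adjusted p 0.269, at the -dox label, and 0.085 ± 0.097, adjusted p 0.556, at the +dox label, edgeR). Unlike *CAD* and *DHODH*, it was lowest in replicate 4 of NAA40-KD (-dox). Without that library the dox labels differed by 0.26 within the NAA40-KD line (adjusted p 0.00416), beside 0.35 ± 0.14 with it (adjusted p 0.140), or 0.33 with it and the GC offset (adjusted p 0.00669). The interaction was 0.42 ± 0.19 (adjusted p 0.172), or 0.39 with the GC offset (adjusted p 0.0434).

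The kinases *UCK1* (ENSG00000130717, chr9:131523801-131531268, minus strand) and *UCK2* (ENSG00000143179, chr1:165827531-165911618, plus strand) start the salvage of uridine and cytidine. *UCK1* was 13.9 to 18.7 CPM in SCR (-dox), 14.2 to 18.5 CPM in SCR (+dox) and 14.5 to 15.7 CPM in NAA40-KD (+dox). In NAA40-KD (-dox) it was 13.4, 12.5, 13.3 and 20.7 CPM. *UCK2* was 61.9 to 70.3 CPM in SCR (-dox), 63.9 to 66.9 CPM in SCR (+dox) and 55.3 to 65.1 CPM in NAA40-KD (+dox). In NAA40-KD (-dox) it was 49.4, 46.9, 49.6 and 65.6 CPM, with replicate 4 the only one inside the SCR range.

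Neither kinase was called between the lines on all libraries by edgeR without a GC offset. The log2 differences were -0.14 ± 0.21 (*UCK1*, adjusted p 0.731) and -0.32 ± 0.16 (*UCK2*, adjusted p 0.264) at the -dox label, and -0.13 ± 0.11 (adjusted p 0.413) and -0.14 ± 0.087 (adjusted p 0.252) at the +dox label. Without replicate 4 of NAA40-KD (-dox) both were lower at the -dox label, *UCK1* with a log2 fold change of -0.35 (adjusted p 0.0441, edgeR) and *UCK2* with -0.45 (adjusted p 0.000844). With all libraries and an offset for GC content, edgeR also called both lower at that label (*UCK1* -0.32, adjusted p 0.0496, and *UCK2* -0.32, adjusted p 0.0214). Counts of *UCK2* are uncertain because its exons share 225 bases with *TMCO1* and 253 with an antisense transcript, both on the opposite strand, and 56 with *MIR3658* on its own strand, and the strand setting of the counting was not stated. *UCK1* shares 6 exon bases with *POMT1*.

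*UPP1* (ENSG00000183696, chr7:48088628-48108733, plus strand) encodes uridine phosphorylase, which splits uridine to uracil and can run in reverse on fluorouracil. Its level was 32.7, 61.2, 52.5 and 30.5 CPM in SCR (-dox) and 51.6, 68.2, 65.7 and 67.7 CPM in SCR (+dox). It was 23.8, 17.2, 23.7 and 36.0 CPM in NAA40-KD (-dox), and 34.3, 29.2, 40.4 and 44.6 CPM in NAA40-KD (+dox). The NAA40-KD libraries lay below all SCR libraries at the +dox label, while at the -dox label replicate 4 of NAA40-KD overlapped the SCR libraries, which themselves spanned 30.5 to 61.2 CPM.

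The line difference of *UPP1* was -0.77 ± 0.13 at the +dox label (adjusted p 0.000254, edgeR) and -0.80 ± 0.29 at the -dox label (adjusted p 0.135), or -1.04 without replicate 4 (adjusted p 0.00743). The interaction was 0.045 ± 0.33 (adjusted p 0.951), so no dependence of the line difference on the label was detectable. *UPP1* was also the only one of the 10 with an unadjusted p under 0.05 between the dox labels of the SCR line, with a log2 fold change of 0.52 ± 0.18 (unadjusted p 0.00913, adjusted p 0.99986, edgeR). In the fit over all 16 libraries, its call at the +dox label was lost (-0.77, adjusted p 0.0599) and one at the -dox label was gained (-0.81, adjusted p 0.0228).

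*CDA* (ENSG00000158825, chr1:20588948-20618908, plus strand) encodes cytidine deaminase, which turns cytidine and its drug analogues into uridine forms. It was 27.0, 35.8, 26.3 and 25.8 CPM in SCR (-dox), and 30.0, 29.6, 35.1 and 35.8 CPM in SCR (+dox). It was 33.6, 31.2, 35.8 and 47.8 CPM in NAA40-KD (-dox), and 24.1, 24.7, 23.7 and 19.5 CPM in NAA40-KD (+dox). The libraries labelled NAA40-KD (+dox) lay below all others, and replicate 4 of NAA40-KD (-dox) was the highest of the 16.

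*CDA* was thus lower in NAA40-KD at the +dox label by a log2 fold change of -0.51 ± 0.11 (adjusted p 0.00282, edgeR). At the -dox label its value was 0.38 ± 0.19 (adjusted p 0.264). The interaction was -0.87 ± 0.21 (adjusted p 0.0173), and -0.74 without replicate 4 of NAA40-KD (-dox) (adjusted p 0.00222), with adjusted p up to 0.0460 over the 16 fits without 1 library. Its direction was opposite to that of *CTPS1*: the line difference rose with the +dox label for *CTPS1* and fell for *CDA*. Against the -dox label, *CDA* was lower at the +dox label of the NAA40-KD line, with a log2 fold change of -0.69 ± 0.17 (adjusted p 0.0341), or -0.55 without replicate 4 of NAA40-KD (-dox) (adjusted p 1.46e-05). That call was lost in 6 of the 8 fits without 1 library: without any one of the NAA40-KD (+dox) libraries (adjusted p 0.0974, 0.0890, 0.108 and 0.125 for replicates 1 to 4), and without NAA40-KD (-dox) replicate 1 (0.0588) or 3 (0.0654), with log2 values from -0.74 to -0.62. It was lost too without a filter on low counts (-0.65, adjusted p 0.0850). At the +dox label the call was lost in the fit over all 16 libraries (-0.50, adjusted p 0.0569).

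*TYMP* (ENSG00000025708, chr22:50525752-50530056, minus strand) encodes thymidine phosphorylase, which activates fluorouracil prodrugs. It was 23.5 to 41.8 CPM in SCR (-dox), 26.4 to 37.3 CPM in SCR (+dox) and 26.8 to 30.3 CPM in NAA40-KD (+dox). In NAA40-KD (-dox) it was 23.6, 27.9, 28.3 and 74.1 CPM. Replicate 4 alone set the sign at the -dox label, where the log2 value was 0.33 ± 0.37 with it (adjusted p 0.641) and -0.22 without it (adjusted p 0.293). At the +dox label the difference was -0.23 ± 0.11 (adjusted p 0.149), or -0.32 without SCR (+dox) replicate 1 (adjusted p 0.0240, edgeR). *TYMP* shares 339 exon bases with *SCO2* and 347 with *ODF3B* on its own strand, so its counts are uncertain.

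*DPYD* (ENSG00000188641, chr1:97077743-97995000, minus strand) encodes the dehydrogenase that limits the breakdown of uracil and of fluorouracil. It was 1.70, 3.73, 2.67 and 2.43 CPM in SCR (-dox), and 1.73, 4.13, 2.22 and 2.03 CPM in SCR (+dox). It was 1.04, 1.29, 0.728 and 1.23 CPM in NAA40-KD (-dox), and 1.45, 1.40, 1.47 and 0.781 CPM in NAA40-KD (+dox). The 8 NAA40-KD libraries lay below the 8 SCR libraries, and the groups of a line overlapped.

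*DPYD* was lower in NAA40-KD at both labels, by log2 values of -1.28 ± 0.30 (-dox, adjusted p 0.0383) and -0.99 ± 0.30 (+dox, adjusted p 0.0228, edgeR). It had passed the filter on low counts through its SCR libraries, which favoured this difference. The interaction was 0.30 ± 0.46 (adjusted p 0.721). The call at the -dox label was lost in 7 of the 8 fits without 1 library (adjusted p up to 0.105, log2 values of -1.44 to -1.07), and it held without replicate 4 of NAA40-KD (-1.36, adjusted p 0.00402). The call at the +dox label was lost without SCR (+dox) replicate 2 (-0.65, adjusted p 0.0890) or NAA40-KD (+dox) replicate 4 (-0.80, adjusted p 0.0884), and in the fit over all 16 libraries (-0.98, adjusted p 0.0753). Exons of *DPYD* share 494 bases with *MIR137HG* on its own strand and 109 with *DPYD-AS1* on the other.

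**Figure D3:**
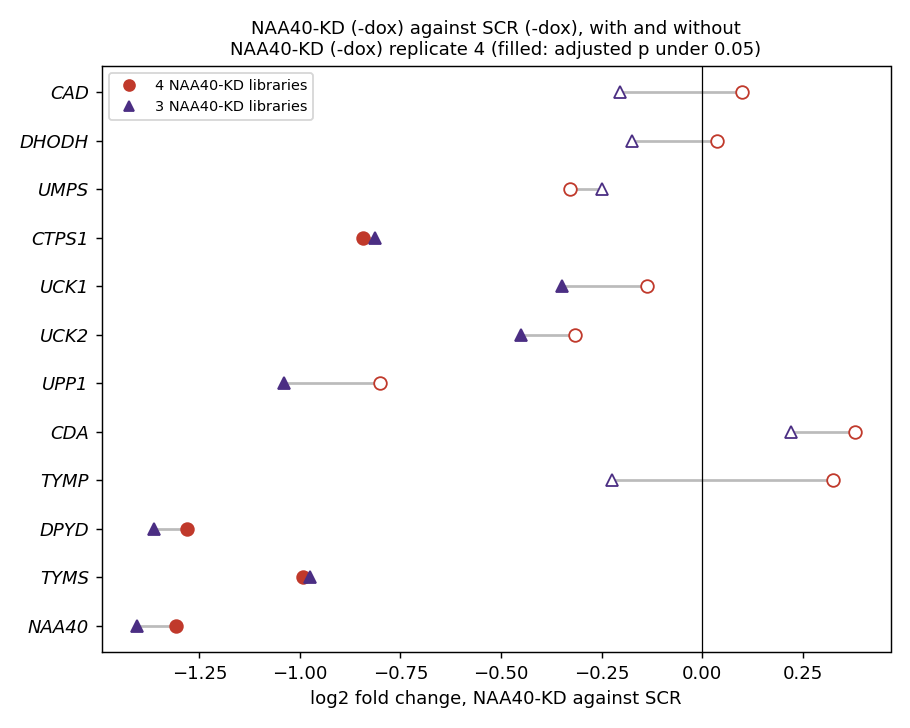
Log2 fold change of NAA40-KD (-dox) against SCR (-dox) (horizontal axis) for the 10 genes, *TYMS* and *NAA40*, with 4 NAA40-KD libraries (circles) and without replicate 4 (triangles), filled where the adjusted p was under 0.05. *CAD*, *DHODH* and *TYMP* changed sign, *UCK1*, *UCK2* and *UPP1* became called, and *CTPS1* and *DPYD* were called either way.

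Replicate 4 of NAA40-KD (-dox) moved the genes unevenly. It stood at 278% of the mean of replicates 1 to 3 for *TYMP*, 187% for *CAD*, 167% for *UPP1*, 158% for *DHODH* and *UCK1*, 143% for *CDA*, 135% for *UCK2* and 121% for *DPYD*. It stood at 89.0% for *CTPS1* and at 76.0% for *UMPS*. The GC content of the longest transcript ran from 40.7% (*DPYD*) and 43.2% (*CTPS1*) to 60.3% (*TYMP*). The 4 genes above 55% (*CAD*, *UCK1*, *CDA* and *TYMP*) were all higher in replicate 4 than in the others. Below 55%, *UPP1*, *DHODH*, *UCK2* and *DPYD* were higher as well, and *CTPS1* and *UMPS* were lower. These 10 points share 1 library, so they describe that library, and the part of base composition in the differences was not tested.

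**Figure D4:**
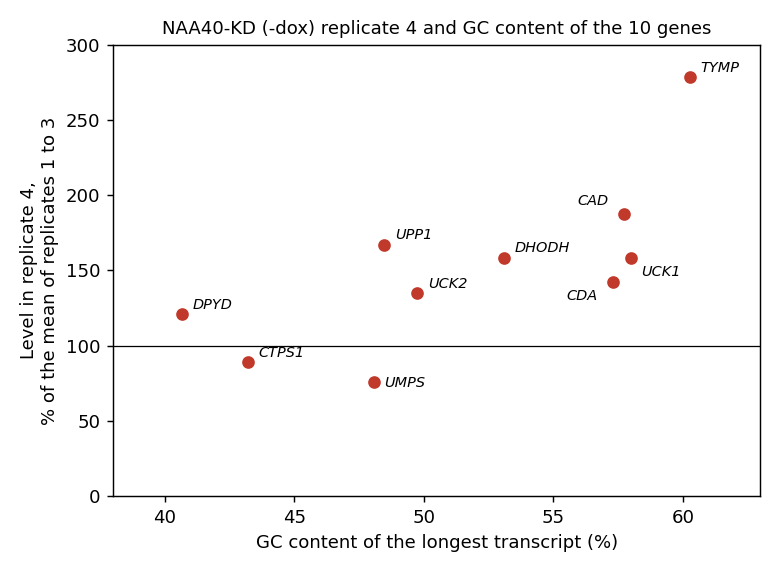
Level of each of the 10 genes in NAA40-KD (-dox) replicate 4 as a percentage of the mean of replicates 1 to 3 (vertical axis, line at 100%) against the GC content of the gene's longest transcript (horizontal axis, %). *TYMP*, the most GC-rich at 60.3%, was at 278%, and *CTPS1* and *UMPS* lay below the line.

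Within each line, the dox label was compared in turn. In the SCR line, which carries no hairpin against *NAA40*, none of the 10 genes and none of the 13882 genes tested was called (0%), by edgeR. At an unadjusted p under 0.05 there were 271 of the 13882 genes, 1 of the 10 among them. DESeq2 and limma-voom called none of the 10 either. The median of the 10 was -0.035, beside -0.0016 over all genes. The standard errors of the 10 genes ran from 0.099 (*UCK2*) to 0.29 (*DPYD*) log2 units. With such errors, the lack of calls does not show that these genes were the same at both labels.

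In the NAA40-KD line, *CTPS1* was higher and *CDA* lower with the +dox label, 1 gene in each direction, beside 4.71% of all 13844 genes called higher and 5.50% lower. None of the 10 passed an absolute log2 fold change of 1, beside 3.99% of all genes. Without replicate 4 of NAA40-KD (-dox), 6 of the 10 were higher (*CAD*, *DHODH*, *UMPS*, *CTPS1*, *UCK2* and *UPP1*) and *CDA* alone was lower, beside 25.8% of all genes called higher and 26.6% lower. The 6 held the de novo enzymes, with log2 values of 0.33 (*CAD*), 0.76 (*DHODH*) and 0.26 (*UMPS*), but also salvage enzymes, with 0.28 (*UCK2*) and 0.78 (*UPP1*). Of the 6, edgeR on all 8 libraries without a GC offset called only *CTPS1*. The median of the 10 was 0.20 with that library and 0.30 without it, beside -0.044 and -0.0037 over all genes. The comparisons share libraries, so their values are not independent of one another.

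The interaction of line and dox label called *CTPS1* higher and *CDA* lower, beside 4.31% of all 14392 genes called higher and 4.91% lower. *CTPS1* was the only one of the 10 whose interaction passed an absolute log2 value of 1, beside 4.49% of all genes. Without replicate 4 of NAA40-KD (-dox), *CAD* (0.39, adjusted p 0.0172, edgeR) and *DHODH* joined *CTPS1*, beside 11.9% of all genes called higher and 12.3% lower.

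Thymidylate synthase, the target of activated fluorouracil, was lowest in the same group as *CTPS1*. *TYMS* was 45.6, 40.0, 42.4 and 57.0 CPM in SCR (-dox), and 42.6, 34.6, 53.3 and 40.0 CPM in SCR (+dox). It was 23.8, 21.6, 25.6 and 21.8 CPM in NAA40-KD (-dox), and 47.7, 44.7, 55.4 and 47.2 CPM in NAA40-KD (+dox). The libraries labelled NAA40-KD (-dox) lay below all others, a log2 line difference of -0.99 ± 0.16 (adjusted p 0.0102, edgeR), or -0.98 without replicate 4 (adjusted p 3.13e-05). At the +dox label it was 0.19 ± 0.12 (adjusted p 0.250). *TYMS* shares 967 exon bases with *ENOSF1* and 183 with *TYMSOS* on the opposite strand, so its counts are uncertain.

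The pathway's other genes were read from lists of enzymes and transporters. At the -dox label 5 of the 40 tested were called between the lines, 1 higher and 4 lower, beside 2.88% and 3.54% of all genes. Of the 9 nucleotidases and dNTP hydrolases, *NT5E*, the cell-surface nucleotidase CD73, was lower by a log2 value of -2.11 ± 0.16 (adjusted p 0.000739, edgeR), from 225.7 ± 10.7 CPM in SCR to 52.0 ± 8.17 CPM in NAA40-KD (SD, n = 4). *DUT*, which removes dUTP, was lower (-0.89 ± 0.18, adjusted p 0.0207), and *NT5M*, a mitochondrial nucleotidase, was higher (1.14 ± 0.27, adjusted p 0.0392). Of the 9 genes of thymidylate and deoxynucleotide supply, *TYMS* and *RRM2* were lower, the latter a subunit of ribonucleotide reductase (-1.31 ± 0.31, adjusted p 0.0374).

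These 5 calls did not stand equally firm. *NT5E* kept its call in each of the 8 fits without 1 library, while *RRM2* lost it in all but the fit without NAA40-KD (-dox) replicate 4 (adjusted p up to 0.125). *DUT* lost it in 6 and *NT5M* in 6 of the 8 (adjusted p up to 0.0697 and 0.132). Without that replicate the log2 values were -2.02 (*NT5E*), -0.91 (*DUT*), 0.83 (*NT5M*) and -1.06 (*RRM2*). In that fit 18 of the 40 genes were called, 5 higher and 13 lower, beside 17.1% and 19.4% of all genes. The share called lower was thus above that over all genes and the share called higher below it, a difference that was not tested. Because the lists were chosen with earlier results of these data known, no conclusion is drawn from it. None of the 4 genes of PRPP supply, the 8 from UMP to CTP and UTP, the 2 of other salvage, the 4 transporters and the 4 of uracil excision was called on all libraries. The medians of the lists ran from -0.26 (thymidylate and deoxynucleotide supply) to 0.12 (UMP to CTP and UTP). Of 3 further enzymes of pyrimidine breakdown, 2 were listed and neither passed the filter.

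At the +dox label 12 of the 40 were called, 8 higher and 4 lower. Of all genes 10.9% were higher and 13.7% lower. The share of the 40 called higher was thus above that over all genes and the share called lower below it, which was not tested. The lists were chosen with earlier results of these data known, so no conclusion is drawn from these shares. The fit over all 16 libraries called 3 of the 40, *NT5E*, *NT5M* and *SAMHD1*, so the other calls given here for this label were lost in it. Higher were 4 of the 9 nucleotidases and dNTP hydrolases, and 1 each of PRPP supply, UMP to CTP and UTP, transport and uracil excision. Lower were 2 of the 9 nucleotidases and 2 of the 9 genes of thymidylate and deoxynucleotide supply. None passed an absolute log2 fold change of 1. *NT5E* was again lower (-0.89 ± 0.085, adjusted p 8.88e-07), at 129.3 ± 3.02 CPM against 240.1 ± 21.6 in SCR (+dox) (SD, n = 4, edgeR). *NT5M* was higher (0.85 ± 0.17, adjusted p 0.00132), as was *DCTPP1*, a dCTP pyrophosphatase (0.48 ± 0.13, adjusted p 0.0121). *TK1*, thymidine kinase, was lower (-0.51 ± 0.12, adjusted p 0.00442), and so was *RRM2* (-0.31 ± 0.096, adjusted p 0.0254), whose call was lost in 5 of the 8 fits without 1 library (adjusted p up to 0.0976). *UNG*, which excises uracil from DNA, was higher (0.37 ± 0.095, adjusted p 0.00895).

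Among the nucleotidases and dNTP hydrolases, 3 more calls, named here after their values were seen, held in each of the 8 fits without 1 library. In the edgeR fit over all 16 libraries *SAMHD1* kept its call, while *NT5C* (adjusted p 0.306) and *NT5C2* (adjusted p 0.227) lost theirs. *NT5C* was lower (-0.48 ± 0.12, adjusted p 0.00973), and *NT5C2* (0.45 ± 0.11, adjusted p 0.00649) and *SAMHD1* (0.43 ± 0.095, adjusted p 0.00295, edgeR) were higher. *PRPS2*, a PRPP synthetase, was higher by 0.29 ± 0.093 (adjusted p 0.0298) and *SLC29A1*, the main equilibrative nucleoside carrier, by 0.26 ± 0.089 (adjusted p 0.0368, edgeR), and each lost its call in 6 of the 8 fits without 1 library (adjusted p up to 0.0987 and 0.106). *NME2*, a nucleoside diphosphate kinase, was higher by 0.79 ± 0.17 (adjusted p 0.00282), at 6.26 ± 0.773 CPM against 3.61 ± 0.610 (SD, n = 4). Its coding sequence resembles that of *NME1*, and its overlap with other genes was not examined, so its counts are uncertain.

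**Figure D5:**
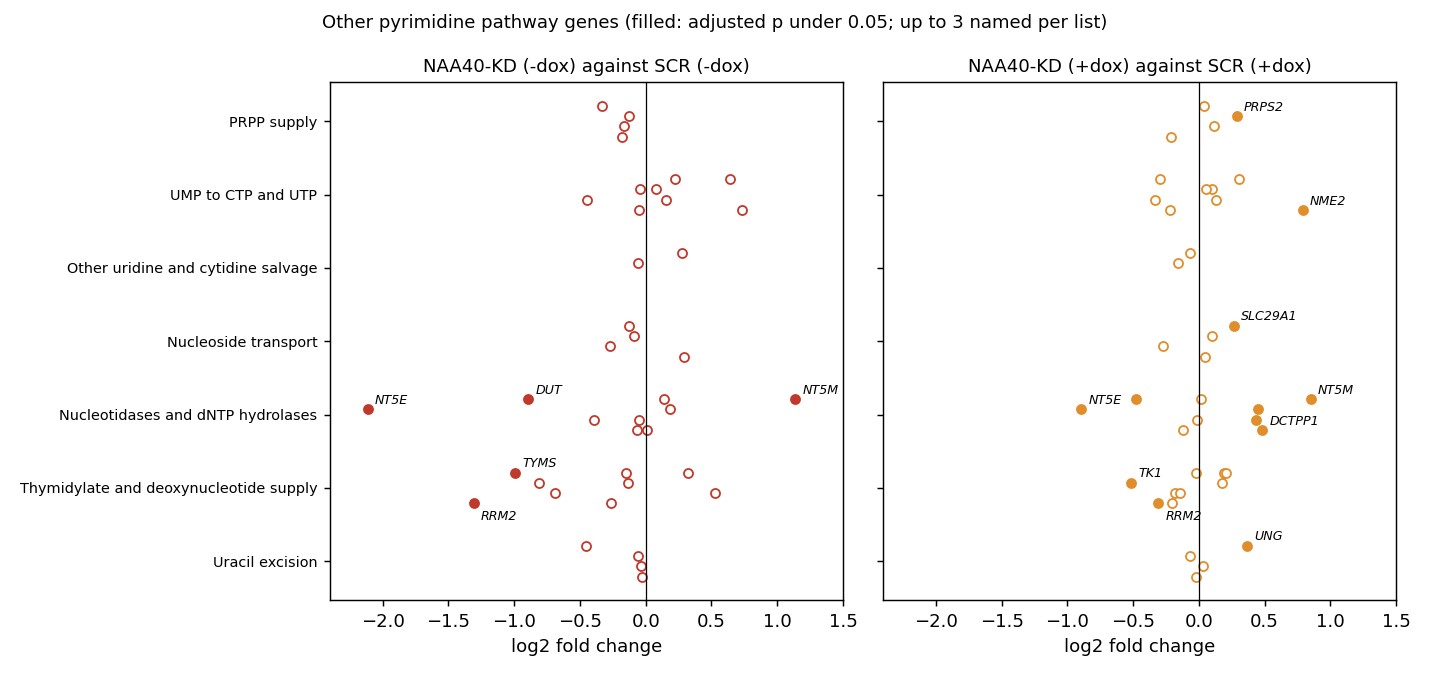
Log2 fold change of NAA40-KD against SCR (horizontal axes) for the genes of 7 further lists (vertical axis, 1 point per gene) at the -dox label (left) and the +dox label (right), filled where the adjusted p was under 0.05, with up to 3 called genes named per list. *NT5E* was lower and *NT5M* higher at both labels, and *TYMS* and *DUT* were called at the -dox label only in this plot.

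Within the NAA40-KD line, 4 of the 40 genes were higher with the +dox label and none lower, beside 4.71% and 5.50% of all genes: *NT5E* (1.31 ± 0.14, adjusted p 0.00214), *DUT* (1.10 ± 0.13, adjusted p 0.00269), *TYMS* (1.07 ± 0.13, adjusted p 0.00287) and *UNG* (0.81 ± 0.12, adjusted p 0.00620, edgeR). Each kept its call in the 8 fits without 1 library. Without replicate 4 of NAA40-KD (-dox) the values were 1.21, 1.11, 1.04 and 0.85, and 25 of the 40 were called, 20 higher and 5 lower, beside 25.8% and 26.6% of all genes. The interaction was called for the same 4 genes, *NT5E* (1.22), *DUT* (0.92), *TYMS* (1.19) and *UNG* (0.83), and in the other direction for the mitochondrial thymidine kinase *TK2* (-0.70), named here after its value was seen. *DUT* lost that call in 7 of the 16 fits without 1 library (adjusted p up to 0.0665) and *TK2* in 2 (adjusted p up to 0.0547), and *TK2* also lost it without a filter on low counts (adjusted p 0.177).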

How the data were processed

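The authors aligned reads with STAR and deposited raw counts per gene from featureCounts, without normalization or a filter. The methods name the mouse build mm10 and a stranded kit, the submitters' processing notes name hg38 and GRCm38, and all 33937 identifiers are human Ensembl identifiers (33811 in GENCODE 29, GRCh38). How the counting treated strand is not given in the sources used here. From the deposited counts, edgeR 4.0.16 in R 4.3.3 gave TMM-normalized CPM, log2 fold changes and robust quasi-likelihood F tests (two-sided), over genes with CPM above 1 in at least 4 libraries of the fit, with Benjamini-Hochberg adjustment over all genes tested. Comparisons of 2 groups were fitted on their 8 libraries, and the interaction on all 16. Standard errors were derived from the fold change and its F value. All 10 genes were named, and of each further list up to 3 called genes with the largest change in each line comparison and between the dox labels of NAA40-KD, plus *TYMS*. The genes and lists were chosen with earlier results of these data known. No library pair of a group agreed within sampling noise (chi-square over degrees of freedom 1.74 to 140). This ratio was 1.74 to 4.44 in NAA40-KD (+dox) and 2.43 to 7.16 among replicates 1 to 3 of NAA40-KD (-dox). Within the SCR groups it was 8.61 to 40.5. Such values do not tell separate cultures from separate preparations of the same cells. Each library was counted as a replicate. Total counts of 11065606 to 13855486 leave large counting errors for weakly expressed genes. Alternatives were DESeq2 1.42.0, limma-voom (limma 3.58.1), other scalings and filters, a joint fit of the 4 groups, a block for replicate number, other thresholds and each library left out. An offset for GC content (lowess, span 0.3) and the counts over the other pathway genes were added after the data had been seen. The edgeR fit of NAA40-KD (+dox) against SCR (+dox) was tried on counts simulated with a fixed dispersion, without an outlying library or a shift by GC content. The other comparisons and alternatives were not simulated.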

Additional observations from a re-analysis of the deposited data

Results flagged for a closer look

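A library was set apart when its distance to the nearest other library of its group of 4 exceeded Dixon's 95% critical share of the group's range. Of 44 groups examined, 9 met this, where chance alone gives about 1 in 20. Replicate 4 of NAA40-KD (-dox) accounted for 4 of them: *CAD* at 463.3 CPM beside 239.9 to 255.1 in the others, *UCK1* at 20.7 beside 12.5 to 13.4, *UCK2* at 65.6 beside 46.9 to 49.6 and *TYMP* at 74.1 beside 23.6 to 28.3. SCR (+dox) replicate 1 was low for *UPP1* (51.6 CPM beside 65.7 to 68.2) and for *TYMP* (26.4 beside 35.8 to 37.3). SCR (-dox) replicate 2 was high for *CDA* (35.8 CPM beside 25.8 to 27.0), NAA40-KD (+dox) replicate 1 was high for *UCK1* (15.7 beside 14.5 to 14.6), and NAA40-KD (+dox) replicate 4 was low for *DPYD* (0.781 beside 1.40 to 1.47).

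The line difference depended on the dox label, by the interaction in edgeR's quasi-likelihood test, for *CTPS1* (1.00 log2 units, adjusted p 0.00226) and for *CDA* (-0.87, adjusted p 0.0173).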

How the results depend on the processing

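Of 1519 values of single genes under the alternatives, 1364 kept their direction and side of the threshold, 87 lost a call, 26 gained one and 42 changed sign, and the cause was not tested. Weakly expressed *DPYD* had 10 to 53 counts per library, so its counting error is large. *NAA40* was at 9.25 to 13.8 CPM under the NAA40-KD (-dox) label and at 25.9 to 34.4 CPM under SCR (-dox). It was at 28.6 to 31.8 CPM under NAA40-KD (+dox). The reason for this pattern of *NAA40* was not tested.

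At the -dox label, 2 of the 10 genes became 1 with CPM above 1 in every library (9 tested), 0 with the replicate block, 4 with the GC offset, 0 at an adjusted p threshold of 0.01, 1 with the fold threshold and 0 to 5 without 1 library. The 5 other pathway genes became 8 with DESeq2, 10 in 1 fit over all libraries, 1 with the block, 15 with the GC offset, 1 at 0.01, 3 with the fold threshold and 2 to 18 without 1 library. Without replicate 4 of NAA40-KD (-dox), calls over all genes rose too, from 2.88% to 17.1% higher and from 3.54% to 19.4% lower. For DESeq2, the joint fit, the block and the GC offset the share over all genes is not given. The counts here and below thus cannot be read as results about the pathway.

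At the +dox label, 4 of the 10 became 1 in 1 fit over all libraries and 0 with the fold threshold, and the 12 other genes became 3 and 0. Within the NAA40-KD line, 2 of the 10 became 1 without a filter, 1 with the block, 5 with the GC offset, 1 at 0.01, 0 with the fold threshold and 1 to 7 without 1 library. The 4 other genes became 7 with DESeq2, 8 in 1 fit, 22 with the GC offset, 7 at 0.1 and 4 to 25 without 1 library. For the interaction, 2 of the 10 became 5 with the GC offset, 1 at 0.01, 1 with the fold threshold and 2 to 4 without 1 library, and the 5 other genes became 14, 2, 2 and 3 to 12.

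Signs that changed were all of values not called. At the -dox label, *CAD* (0.098) became -0.11 with the GC offset and -0.20 to 0.20 without 1 library. *DHODH* (0.036) became -0.0091 without a filter, -0.054 with the GC offset and -0.17 to 0.13 without 1 library, and *TYMP* became -0.22 to 0.51. Within the NAA40-KD line, *UCK1* (-0.019) became 0.013 with limma-voom, 0.014 with library-size scaling, 0.021 without a filter, 0.0095 with the replicate block and 0.21 with the GC offset. Without 1 library it became -0.10 to 0.17, *CAD* -0.060 to 0.33 and *TYMP* -0.60 to 0.12. For the interaction, *UCK1* (0.017) became -0.0014 with upper-quartile scaling, -0.0019 with CPM above 1 in every library and -0.061 to 0.20 without 1 library, and *UPP1* became -0.15 to 0.26. In the SCR line, leaving out 1 library gave ranges of -0.082 to 0.018 (*DHODH*), -0.13 to 0.033 (*UMPS*), -0.11 to 0.035 (*UCK1*), -0.058 to 0.011 (*UCK2*), -0.40 to 0.14 (*DPYD*) and -0.25 to 0.0017 (*TYMS*).

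The replicate numbers carry no stated pairing, and correlations of same-numbered libraries ran from -0.51 to 0.30. With the replicate block, *CTPS1* (-0.83, adjusted p 0.0969), *DPYD* (-1.26, 0.108) and *TYMS* (-0.98, 0.0764) at the -dox label and *CDA* within the NAA40-KD line (-0.68, 0.101) were no longer called by edgeR, nor were *NT5M* (1.08, 0.126), *DUT* (-0.87, 0.0907) and *RRM2* (-1.40, 0.108) at the -dox label.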
